A study of Mus musculus with 6 samples.

Results

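The cytosolic ribosomal protein genes were compared between mouse oocytes labelled knockout (KO) and wild type (WT). The members were chosen by name and annotation: protein-coding rows whose symbol is Rpl or Rps with a number and no more than a closing a, l or x, together with Rplp0, Rplp1, Rplp2 and Rpsa. This gave 79 of the 25353 genes in the deposited table, 48 of the large (60S) subunit and 31 of the small (40S) subunit. RNA had been sequenced from germinal vesicle (GV) oocytes, female germ cells arrested in meiotic prophase, in 3 WT and 3 KO libraries, each made from a pool of 5 oocytes. All mice were C57BL/6J. The design text gives their age as 8 weeks, whereas the age field reads P1, and the labels do not settle which holds. The deleted gene is also labelled in more than one way: the design text of the series gives Mfn2-/-, and the samples' own genotype and treatment text give Mfn1-/-. The labels name no Cre driver, deleted exon or other allele in either group and no treatment. The protocol speaks both of oocytes from digested ovaries and of oocytes freed from secondary follicles. Nothing in the labels ties a pool to its own mouse, so p-values measure the spread between pooled samples.

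Ribosomal proteins assemble with ribosomal RNA into the 40S subunit, which reads the messenger RNA, and the 60S subunit, which joins the amino acids. Growing oocytes build a large store of ribosomes and of maternal messenger RNA before transcription falls silent in the fully grown cell. Many messenger RNAs of these proteins begin with a C followed by a run of pyrimidines, the 5' terminal oligopyrimidine (TOP) motif, through which their translation follows nutrient signalling by mTOR.

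The mitofusin genes, which encode GTPases that fuse mitochondria, were read first as a check of the labels. Mfn2 had normalized read counts of 25.5, 38.1 and 32.3 in WT libraries 1 to 3 and of 5.25, 5.28 and 4.50 in KO libraries 1 to 3, so the groups did not overlap. Its log2 fold change was -2.44 (SE 0.38, adjusted p = 0.00487, limma with Benjamini-Hochberg adjustment over 18762 genes). Mfn1 differed by 0.19 on the log2 scale (SE 0.13, adjusted p = 0.482, limma). The library totals were 6450191 to 7992598 reads assigned to genes. The 10 oocyte markers (such as Zp3 and Gdf9) summed to 138000 to 168500 in WT and to 105500 to 146600 in KO. Of the 10, 3 (Dppa3, Nlrp5 and Zp1) were lower in every KO library than in every WT library, as were 11.7% of all tested genes. The other markers overlapped, among them Kit (619 to 661 in WT, 594 to 645 in KO) and Ddx4 (199 to 230 and 210 to 505). The 10 granulosa cell markers summed to 1684 to 1903 in WT and to 1653 to 1800 in KO, with the defining marker Foxl2 between 0 and 3.33. Most of each sum came from Esr2 (1200 to 1315 over the 6 libraries) and Cyp19a1, so the sums say little of the other markers. Cyp19a1 had 363, 405 and 445 in WT libraries 1 to 3 and 303, 336 and 301 in KO libraries 1 to 3. It was the 1 granulosa marker of the 10 that was lower in every KO library than in every WT library, and 0 were higher. Inha had 171, 33.5 and 41.6 in WT libraries 1 to 3 and 28.4, 63.4 and 101 in KO libraries 1 to 3. Steroid-producing theca and luteal markers (3 of 5 listed genes were in the table) summed to 1891, 17.7 and 321.3 in WT libraries 1 to 3 and to between 9.45 and 54.0 in KO. Of these 3, Cyp11a1 (13.9 to 604 in WT, 3.15 to 5.28 in KO) and Lhcgr (2.79 to 16.6 and 0 to 1.05) were lower in every KO library. Hsd3b1 overlapped, at 1270, 0.93 and 219 in WT libraries 1 to 3 and 5.25 to 49.5 in KO. The 4 immune markers found in the table summed to 22.3 to 49.9 in WT and to 8.45 to 14.4 in KO, and the 5 stromal markers to 16.6 to 73.2 and to 7.19 to 11.6. Dcn made up most of the stromal sum in WT, while Pdgfra had 1.85 to 3.33 in WT and 0 to 5.28 in KO. The 4 endothelial markers summed to 193 to 246 in WT and to 168 to 256 in KO. The 4 surface epithelium markers summed to 15.8 to 28.8 and to 12.7 to 26.1. Both of these sums overlapped between the groups, though Kdr of the endothelial list had 8.37 to 11.1 in WT and 2.11 to 3.15 in KO. The part of these marker differences in the results that follow was not tested. In pooled cells, fewer cells of a type and less RNA per cell cannot be told apart.

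The median ribosomal protein gene was slightly lower in KO than in WT, and 1 single gene passed the test. Of the 79 members, 62 (78.5%) had a log2 fold change below 0, against 51.3% of all tested genes. Their median was -0.17, or 11.2% lower, against -0.01 over all tested genes, and they ran from -0.70 (Rpl11) to 0.37 (Rps23), with quartiles of -0.29 and -0.05. All 79 passed the filter on low values, a normalized value of at least 1 in 3 libraries. Only Rpl35 fell at an adjusted p under 0.05, while 1.41% of all tested genes were called lower, and no member rose, while 1.87% were called higher (3.28% in either direction). A single call among 79 members is close to that background share. Count tests on the recovered reads called 3 members lower and 0 higher each, edgeR with 2.58% of its genes lower and 3.45% higher, and DESeq2 with 3.13% lower and 3.72% higher. At an unadjusted p under 0.05, 19 members were lower and 0 higher, where 8.83% and 9.16% of all tested genes were. The 3 KO values lay below all 3 WT values in 23 members (29.1%), against 11.7% of all tested genes, and above them in 0 members, against 11.5%. The other 56 members overlapped between the groups.

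**Figure D1:**
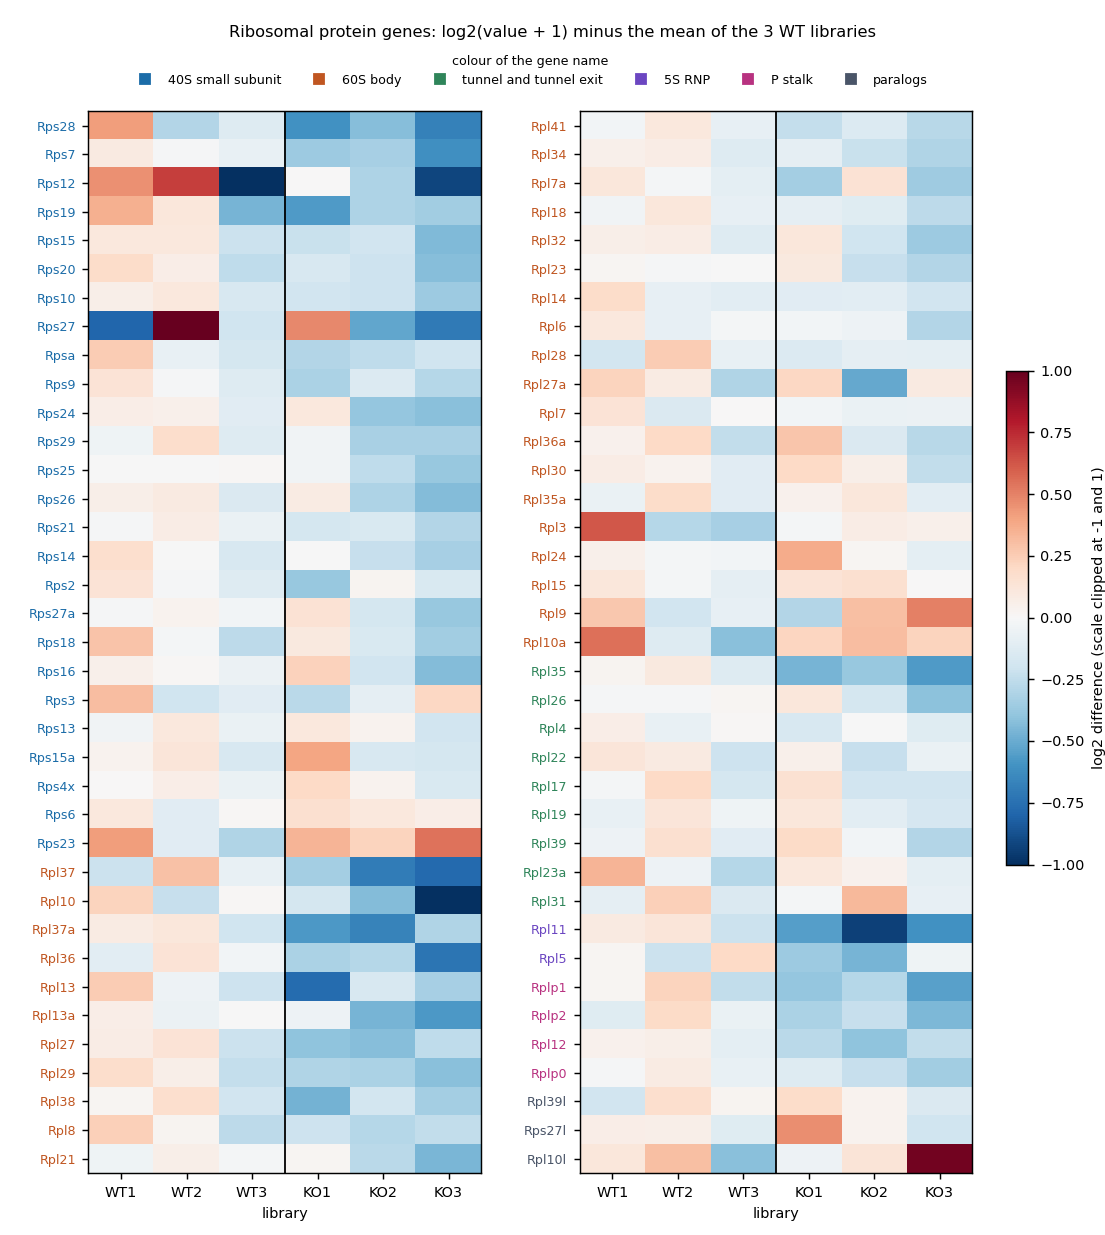
Normalized value of 74 of the 79 ribosomal protein genes in each library, as log2(value + 1) minus the mean of the 3 WT libraries (color, clipped at -1 and 1); rows are genes, with names colored by role, and columns are libraries. WT3 is bluer than WT1 and WT2 in most rows, and KO3 is the lowest KO library in 54 of the 79 genes.

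Libraries of the same group lay as far apart as the groups did. The median member stood at 0.06, 0.06 and -0.12 in WT libraries 1 to 3 and at -0.05, -0.18 and -0.28 in KO libraries 1 to 3, as log2 differences from the WT mean. WT library 3 was thus lower than KO library 1. It was the lowest WT library in 58 members, KO library 3 was the lowest KO library in 54, and KO library 1 was the highest in 46. The replicate SD of these medians, pooled over the groups, was 0.113. The median over all genes stood between 0 and 0.0109 in every library. As a share of all reads, the members took 0.718%, 0.727% and 0.622% in WT libraries 1 to 3 and 0.691%, 0.637% and 0.598% in KO libraries 1 to 3. These shares overlapped between the groups, with WT library 3 below KO libraries 1 and 2. Leaving out 1 library at a time moved the members' median between -0.12 (without KO library 3) and -0.24 (without KO library 1). In all 6 such fits 50 members kept a fold change below 0 and 7 kept one above 0.

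**Figure D2:**
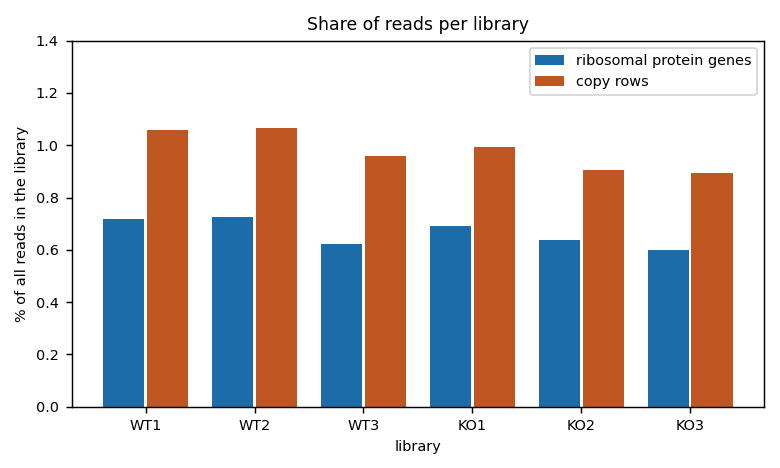
Share of all reads in each library (bars, percent) taken by the 79 ribosomal protein genes (blue) and by the rows of their near-identical copies (orange); each bar is 1 library. The gene shares run from 0.598% to 0.727%, and WT3 lies below KO1 and KO2.

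Rpl35, a protein at the exit of the tunnel through which new chains leave the 60S subunit, was the one member past the threshold. The gene lies on the minus strand at chr2:39001580-39005624 (GRCm38). Its normalized read counts were 1011, 1061 and 909 in WT libraries 1 to 3 and 717, 761 and 671 in KO libraries 1 to 3. Every KO library lay below every WT library, and the log2 fold change was -0.47 (SE 0.11, adjusted p = 0.0315, limma). The call held without KO library 1 (adjusted p = 0.0195, limma). It was lost without WT library 1 (adjusted p = 0.108), WT library 2 (0.138), WT library 3 (0.075), KO library 2 (0.0583) or KO library 3 (0.0834), each in the limma fit. Of the 75-base windows of its transcript, 97.1% matched another gene, and the rows of 6 copies held 13358 reads against 5186 in its own row. Arpc5l and Wdr38 overlap it on the other strand, and reads of the overlap cannot be told apart in libraries that keep no strand. The same limit holds for Rpl5 (Fam69a), Rpl12 (Lrsam1), Rpl3 (Syngr1) and Rps28 (Kank3), among others. The other 8 tunnel proteins, such as Rpl39 and Rpl31, ranged from -0.16 to 0.07 on the log2 scale, and 0 of them passed the test.

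The starts of 8 genes are shown because they set the member past the threshold and others of small p beside other members that carry a pyrimidine run. They were chosen after the values were seen. Each is the 40 bases from 20 before to 20 after the RefSeq start on GRCm38.p6, written 5' to 3' on the gene's own strand, and capitals mark the longest run of a C followed by at least 6 pyrimidines. Rpl35 is at chr2:39005112-39005151 (minus strand), Rps7 at chr12:28635934-28635973 (minus), Rpl11 at chr4:136053374-136053413 (minus), Rpl37 at chr15:5116593-5116632 (plus), Rplp2 at chr7:141447631-141447670 (plus), Rps10 at chr17:27635225-27635264 (minus), Rpl28 at chr7:4792945-4792984 (plus) and Rps6 at chr4:86857348-86857387 (minus).
Rpl35: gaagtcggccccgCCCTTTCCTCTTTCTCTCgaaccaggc
Rps7: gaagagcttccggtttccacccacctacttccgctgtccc
Rpl11: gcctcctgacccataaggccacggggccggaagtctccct
Rpl37: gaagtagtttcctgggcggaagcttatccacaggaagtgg
Rplp2: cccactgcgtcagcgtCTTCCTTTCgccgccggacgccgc
Rps10: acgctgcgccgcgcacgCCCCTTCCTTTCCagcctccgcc
Rpl28: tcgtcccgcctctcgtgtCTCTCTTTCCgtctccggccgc
Rps6: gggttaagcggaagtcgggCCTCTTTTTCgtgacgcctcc
The run of Rpl35 is 18 bases long and spans the annotated start, while Rps7, Rpl11 and Rpl37 have no such run in this window. Of the 79 members, 59 were matched in the RefSeq promoter table, and 34 of these (57.6%) held the run on the sense strand, against 21.4% of the 27025 genes in the table. The letters CCGGAAG or, on the other strand, CTTCCGG, an ETS-type motif, occurred in the 300 bases around the start of 25 members (42.4%) and of 9.93% of all genes in the table. RefSeq starts are annotated positions and were not measured in these oocytes. Entries for Rpl8, Rps27a, Rpl32, Rps20, Rpl3, Rpl21, Rplp1, Rpl36, Rps14, Rps29, Rpl7, Rpl23a, Rpl29, Rpl17 and Rpl30, among others, were not used here.

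The 5S ribonucleoprotein, in which Rpl5 and Rpl11 carry the 5S ribosomal RNA into the 60S subunit and which can also bind and inhibit Mdm2, held the member with the lowest fold change of its own row, Rpl11. Rpl11 (chr4:136028265-136053428, minus strand) had normalized read counts of 136, 139 and 110 in WT libraries 1 to 3 and of 87.2, 66.6 and 83.6 in KO libraries 1 to 3. The groups did not overlap, and the log2 fold change was -0.70 (SE 0.19), but the adjusted p of 0.0532 (limma) missed the threshold. It passed without KO library 1 (adjusted p = 0.0316, limma) and in edgeR (0.0411), and missed in DESeq2 (0.0503), with libraries scaled to the same total (0.0822, limma) and with a trend on transcript length and GC content removed (0.085, limma). The row held 631 reads and the rows of its copies 5586, and with these added the log2 fold change was -0.38 (SE 0.10, adjusted p = 0.0532, limma). Rpl5 had values of 92.0, 78.1 and 104 in WT and of 70.4, 65.5 and 88.1 in KO, which overlapped (log2 fold change -0.29, SE 0.20, adjusted p = 0.497, limma). The copies of Rpl5 held 99.2% of the reads of row and copies together, and with them added its log2 fold change was -0.31 (SE 0.10).

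The P stalk recruits the elongation factor GTPases to the ribosome, and the own rows of its 4 genes had log2 fold changes of -0.40 to -0.23, none of which passed the test. In each of the 4 the KO values lay below the WT values, a pattern that 11.7% of all tested genes showed. Rplp1, one of the acidic stalk proteins, had values of 1321, 1520 and 1101 in WT libraries 1 to 3 and of 996, 1068 and 895 in KO libraries 1 to 3. Its log2 fold change was -0.40 (SE 0.13, adjusted p = 0.0883, limma), with an adjusted p of 0.0376 in DESeq2 and of 0.0655 in edgeR. With the length and GC trend removed it was -0.17 (adjusted p = 0.514, limma). Its partner Rplp2 had values of 599.9, 744 and 621 in WT and of 523, 557 and 478 in KO (log2 fold change -0.33, SE 0.12, adjusted p = 0.157, limma). Rplp0, the scaffold of the stalk, averaged 3696 ± 209 over the WT libraries against 3144 ± 239.7 over the KO libraries (mean ± SD, n = 3 each; log2 fold change -0.23, SE 0.10). Rpl12, at the base of the stalk, had 147 reads over the 6 libraries and a log2 fold change of -0.31 (SE 0.30). The copies of Rpl12 held 94.3% of the sum, and with them added its log2 fold change was -0.04 (SE 0.13) and the groups overlapped, at 479, 411 and 415 in WT and 441, 444 and 383 in KO.

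Among the 30 members of the 40S subunit, 25 had a fold change below 0, the median was -0.21 and 0 passed the test. Rps7, a 40S protein that also takes part in processing of the small-subunit RNA, came nearest. Its values were 807, 750.4 and 718 in WT libraries 1 to 3 and 588, 602 and 496 in KO libraries 1 to 3, so the groups did not overlap. The log2 fold change was -0.44 (SE 0.12, adjusted p = 0.0525, limma). The adjusted p was 0.0404 in edgeR, 0.0198 in DESeq2 and 0.027 in the limma fit without KO library 1. It was 0.0887 with libraries scaled to the same total, 0.12 with the length and GC trend removed and 0.0828 with the copies added, each in limma. Rps28, at the exit of the messenger RNA channel, had the lowest fold change of the subunit, -0.57 (SE 0.23, adjusted p = 0.188, limma), with 116, 70.7 and 79.4 in WT and 56.7, 64.4 and 54.0 in KO. With the length and GC trend removed it was -0.26. Rps23, which sits at the decoding centre, had the highest fold change of all members at 0.37 (SE 0.19, adjusted p = 0.333, limma). Its values of 171, 118 and 103 in WT and of 162, 149 and 186 in KO overlapped.

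In the body of the 60S subunit, 24 of 31 members had a fold change below 0, the median was -0.16 and 0 passed the test. Rpl37, a zinc-binding protein of the subunit, had values of 146, 208 and 162 in WT libraries 1 to 3 and of 134, 105 and 98.9 in KO libraries 1 to 3. No KO value reached the WT range (log2 fold change -0.60, SE 0.18, adjusted p = 0.0818, limma), and the adjusted p was 0.0257 without KO library 1. The copies of Rpl37 held 98.1% of the reads of row and copies together, and with them added its log2 fold change was -0.07 (SE 0.12). Rpl37a, another zinc-binding protein, had values of 239.5, 245 and 197 in WT and of 151, 142 and 183 in KO, without overlap (log2 fold change -0.51, SE 0.16, adjusted p = 0.0851, limma). Rpl36 averaged 327 ± 28.3 over the WT and 242 ± 39.6 over the KO libraries, and Rpl29 594 ± 84.8 and 465 ± 20.9 (mean ± SD, n = 3 each). Rpl13a averaged 348 ± 15.0 and 274 ± 54.7 in the same order. The KO and WT values of Rpl36 and Rpl29 did not overlap, whereas those of Rpl13a did. With the length and GC trend removed, the log2 fold change of Rpl36 went from -0.44 to -0.06. Rpl10a had the highest fold change of the group, 0.25 (SE 0.22, adjusted p = 0.624, limma), and its values of 129, 80.0 and 65.6 in WT overlapped the KO range of 102 to 109.

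**Figure D3:**
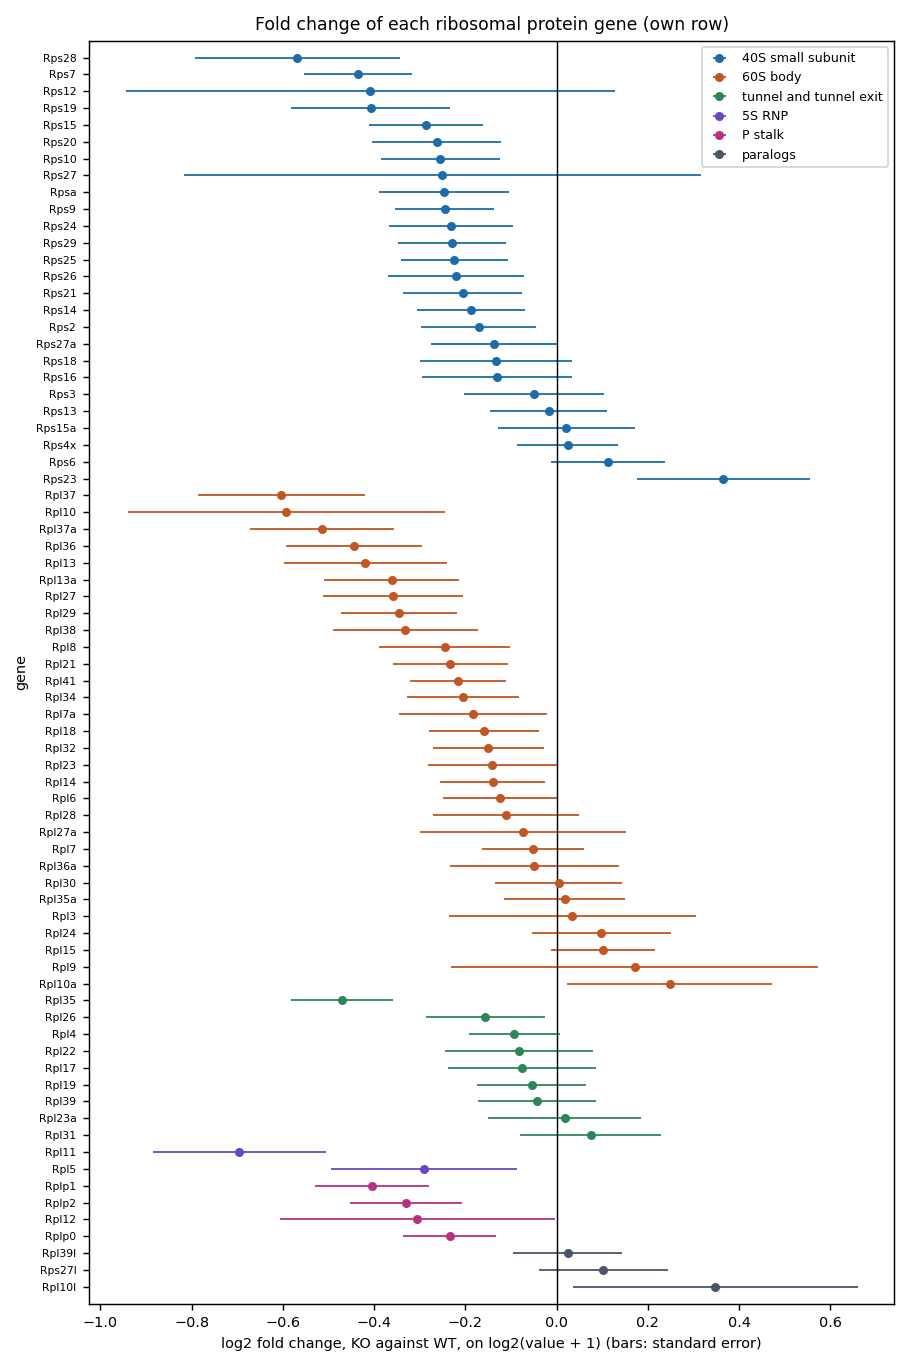
Log2 fold change of KO against WT (x axis, on log2(value + 1); points, with bars of 1 standard error) for 74 of the 79 ribosomal protein genes (y axis), colored by role and sorted within it. Most points lie left of 0, and the 3 paralogs lie right of 0.

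Each of the 3 paralogs measured had a fold change above 0, none passed the test, and the values of all 3 overlapped between the groups. Rpl39l, a paralog of Rpl39 known in mouse for its part in sperm formation, had values of 1340, 1719 and 1563 in WT libraries 1 to 3 and of 1742, 1567 and 1389 in KO libraries 1 to 3 (log2 fold change 0.02, SE 0.12, adjusted p = 0.944, limma). Its parent Rpl39 averaged 999 ± 101 over the WT and 975 ± 162 over the KO libraries (mean ± SD, n = 3 each). Per kilobase of transcript, Rpl39l averaged 1929 and Rpl39 1612 over the 6 libraries, but Rpl39 averaged 3545 with its copies added, while Rpl39l has none. Rps27l had 1395, 1394 and 1225 in WT and 1849, 1370 and 1163 in KO (log2 fold change 0.10, SE 0.14). The row of its parent Rps27 held 41 reads in all, between 3 and 15 per library, and a difference was not detectable at this depth (log2 fold change -0.25, SE 0.57). Rpl10l, an intronless copy of the X-linked Rpl10 that mouse spermatocytes need in meiosis, had 36.6, 41.8 and 24.9 in WT and 32.6, 37.0 and 66.5 in KO (log2 fold change 0.35, SE 0.31). Its parent Rpl10, a late-joining 60S protein, had 32.2, 23.2 and 27.7 in WT and 24.2, 20.1 and 11.7 in KO (log2 fold change -0.59, SE 0.35, adjusted p = 0.397, limma). The copies of Rpl10 held 98.5% of the reads of row and copies together, so its own row may understate its level beside Rpl10l. Whether the reads in the rows of the copies came from Rpl10 was not tested. With them added, Rpl10 averaged 1942 per kilobase, against 39.0 for Rpl10l. Its log2 fold change was then -0.33 (SE 0.11, adjusted p = 0.118, limma), and the groups did not overlap. The other parents, Rps4x and Rpl3, which lies near the peptidyl transferase centre, had log2 fold changes of 0.02 (SE 0.11) and 0.03 (SE 0.27). The copies of Rpl3 held 87.2% of the reads of its row and copies together. Rpl3l and Rps4l were not analysed here.

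Many ribosomal protein genes have processed copies elsewhere in the genome, and in these data much of the signal stood in the rows of the copies. Windows of 75 bases along each member's transcript were matched to all other annotated transcripts with at most 1 mismatch, and rows elsewhere in the genome that shared a window and were annotated as pseudogenes, or had Gm, -ps or rt names, were counted as copies. Each copy was assigned to the member with which it shared most windows. A row that shared only 1 window also counted, such as 4931440P22Rik for Rpl29, so not every copy row is near-identical over its length. There were 566 copy rows, 536 of them annotated as pseudogenes, and 74 members had at least 1. The copy rows held 419734 reads in all against 284670 in the members' own rows, a ratio of 1.47, and 42 members had more reads in their copies than in their own row. The row of Rpl5 held 507 reads and its copies 66225, or 99.2% of the sum. Rpl37 held 868 reads and its copies 44389, or 98.1%. For Rps27, Rps12, Rpl9 and Rpl10 the own rows held 41, 54, 78 and 139 reads and the copies between 92.5% and 98.5% of the sum. Among copy rows with at least 20 reads, 8 rows in 3 sets had identical reads in all 6 libraries, so the same reads may stand in more than 1 row. With each set counted once, the copies held 415891 reads, a ratio of 1.46. How the authors' counting split reads that match more than 1 place is not given in the sources used here, so the level of a single row is uncertain for such genes. Rpl39l, Rpl8, Rps3 and Rpl10l were among the members with no copy row.

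**Figure D4:**
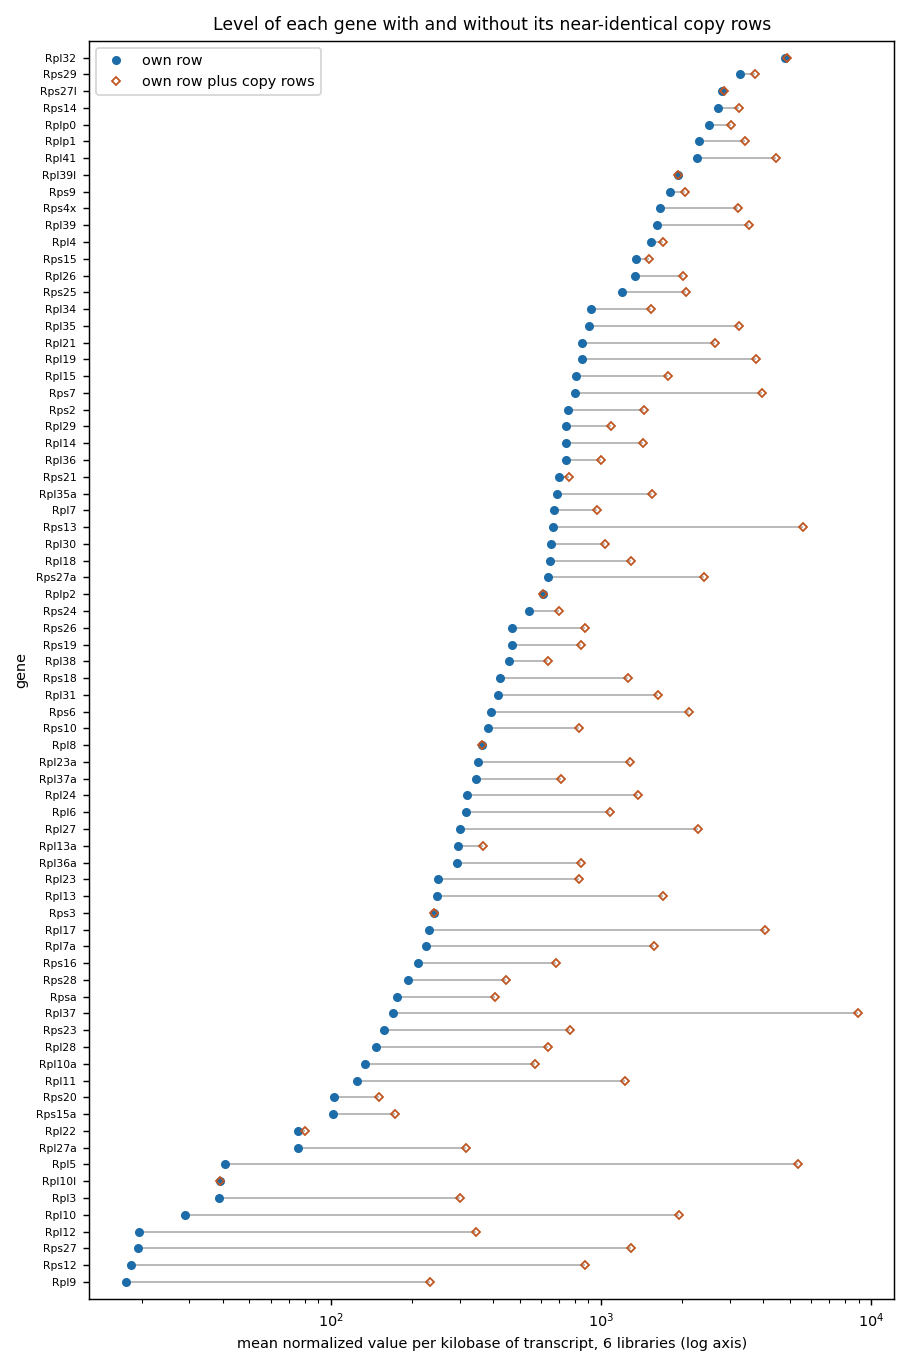
Mean normalized value per kilobase of transcript over the 6 libraries (x axis, log scale) of the own row of 74 of the 79 members (filled points) and of the row plus its copy rows (open diamonds), with genes on the y axis sorted by their own row. Rpl5, Rpl37, Rpl10, Rps27 and Rps12 move furthest right when copies are added, while Rpl32, Rplp2 and Rpl39l barely move.

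On the scale per kilobase, the members' own rows spanned 276-fold, from 17.4 for Rpl9 to 4800 for Rpl32, with quartiles of 218 and 878 and a median of 457. Other high members were Rps29 (3281), Rps27l (2804) and Rps14 (2724). Rps27l and Rps14 differed from each other by less than their SD over libraries (482 and 343). Above Rpl9 the lowest were Rps12 (18.3), Rps27 (19.4), Rpl12 (19.5) and Rpl10 (29.0). With the copies added, the span was 229-fold, from 39.0 for Rpl10l to 8935 for Rpl37, the quartiles were 738 and 2520 and the median was 1370. For the 4 members whose chosen transcript exceeds 2000 bases, among them Rpl5, these levels depend on that choice.

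Adding the copies to each member gave a similar median and other calls. Of the 79 sums, 70 had a log2 fold change below 0 and the median was -0.16. The fold change had the same sign with and without the copies in 71 members. Rpl37a and Rpl36 fell and 0 members rose, where 1.4% and 1.89% of all tested rows were called. The sums for Rpl37a were 548, 542 and 420.1 in WT libraries 1 to 3 and 299, 287 and 296 in KO libraries 1 to 3, without overlap (log2 fold change -0.76, SE 0.13, adjusted p = 0.00661, limma). Those for Rpl36 were 409, 488 and 456 in WT and 335, 344 and 271 in KO, also without overlap (log2 fold change -0.51, SE 0.13, adjusted p = 0.0475, limma). Rpl35 had a log2 fold change of -0.35 as a sum and no longer passed (adjusted p = 0.0686, limma), and Rpl37 moved from -0.60 to -0.07. The KO sums lay below all WT sums in 24 members, against 11.5% of all tested rows, and above them in 0, against 11.7%. Reads that stand in more than 1 row would be summed more than once here. The sums of Rpl5 were 12012, 11812 and 12548 in WT and 9596, 9546 and 10287 in KO, apart from each other (log2 fold change -0.31, SE 0.10, adjusted p = 0.0976, limma).

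Of the 333 copy rows tested on their own, 262 (78.7%) had a fold change below 0, against 51.3% of all tested genes, and the median was -0.32. In that test 8 fell and 2 rose, where 1.41% and 1.87% of all tested genes did. The largest of those that fell by mean value was Rps13-ps1, a processed copy of Rps13 with 1323 ± 66.3 over the WT and 991.6 ± 74.2 over the KO libraries (mean ± SD, n = 3 each; log2 fold change -0.42, SE 0.11, adjusted p = 0.0438, limma). Gm9493, annotated as protein coding and sharing windows with Rps7, averaged 560.1 ± 28.5 in WT and 382 ± 39.9 in KO (log2 fold change -0.55, SE 0.12, adjusted p = 0.0232, limma). Gm4149, a copy of Rpl37a, averaged 272 ± 46.6 and 131 ± 17.9 (log2 fold change -1.04, SE 0.17, adjusted p = 0.00533, limma). The others that fell were Gm14303, Rpl38-ps2, Rpl5-ps2, Rpl5-ps1 and Gm13841. Gm10243, a copy of Rpl35a, rose from 89.6 ± 10.8 to 182.5 ± 13.4 (log2 fold change 1.02, SE 0.17, adjusted p = 0.00558, limma), and so did Gm14231, a copy of Rpl9 (log2 fold change 2.32, SE 0.43, adjusted p = 0.00959, limma). Whether these reads came from the copies or from the parent genes was not tested.

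The members are short and somewhat rich in GC, and fold changes in this comparison moved with both properties over all genes. Their median transcript length was 775 bases and their median GC content 51.8%, against 2263 bases and 49.3% over all tested genes. Tested genes were ranked and cut into 10 bins of equal size. In the bin of shortest transcripts, up to 666 bases, the median log2 fold change was -0.21, that of the 29 members in it was -0.21, and that of the 317 other protein-coding genes that are no copies was -0.13. In the next bin, up to 1048 bases, the medians were -0.06 for all genes, -0.18 for the 32 members and -0.08 for 828 other protein-coding genes. In the bin of highest GC content the median of all genes was -0.14, and in the bin of lowest GC content it was 0.09. A smooth trend on length and GC content was also fitted in each library. The fit included the members and their copies, so the trend can hold part of their own difference. With this trend removed, the members' median moved from -0.17 to -0.06, 50 of 79 were below 0, 49 of them also before, and 0 were called. Rpl35 then had a log2 fold change of -0.38 (adjusted p = 0.0677, limma).

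**Figure D5:**
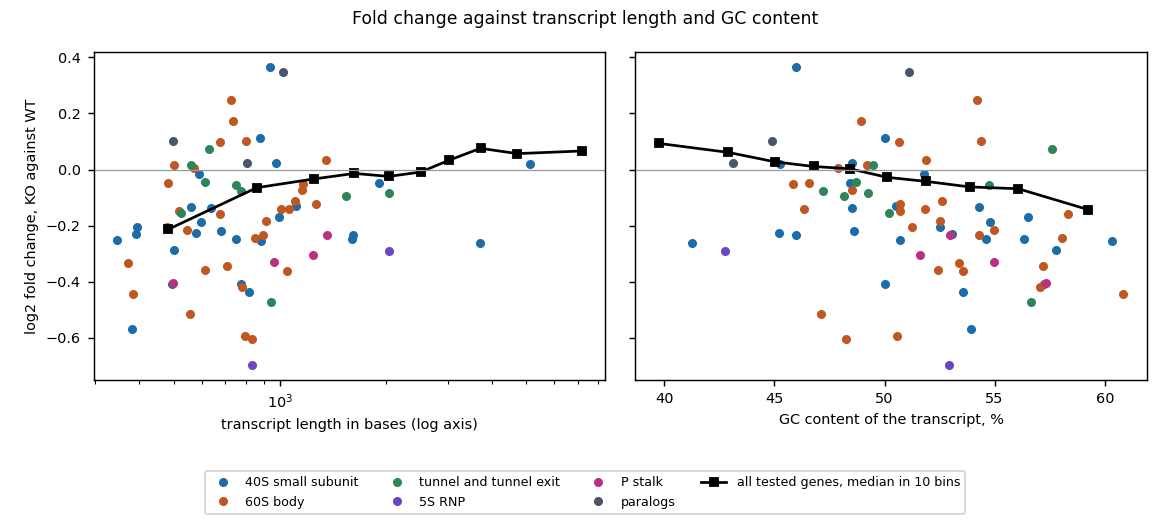
Log2 fold change of KO against WT (y axis) of 74 of the 79 ribosomal protein genes, colored by role, against transcript length in bases (left, log axis) and GC content in percent (right); black squares are the median fold change of all tested genes in 10 bins of equal size along the x axis. The black line falls to -0.21 among the shortest transcripts and to -0.14 at the highest GC content.

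Of 48 ribosome assembly factors, Ncl fell and Nip7 rose, 2 calls at a share near the 3.28% of all tested genes called in either direction. Ncl, the nucleolar protein nucleolin, had values of 6396, 6429 and 7445 in WT libraries 1 to 3 and of 4288, 5435 and 4958 in KO libraries 1 to 3 (log2 fold change -0.47, SE 0.11, adjusted p = 0.032, limma). Nip7, a factor in the maturation of the 60S subunit, had 283, 326 and 293 in WT and 449.6, 455 and 408 in KO (log2 fold change 0.54, SE 0.13, adjusted p = 0.0275, limma). Neither pair of groups overlapped. The call of Nip7 was lost without WT library 1, 2 or 3 or without KO library 2 (adjusted p of 0.0646 to 0.116 in limma). The call of Ncl was lost without WT library 1, 2 or 3 or without KO library 3 (adjusted p of 0.0556 to 0.151 in limma). The median over the assembly factors was -0.07.

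The other lists held 0 calls each. Among 14 genes of RNA polymerase I and its factors, which transcribe the large ribosomal RNA precursor, 5 had a fold change below 0 and the median was 0.27. By smallest p, Polr1c averaged 75.0 ± 9.34 over the WT and 109 ± 18.2 over the KO libraries (mean ± SD, n = 3 each; log2 fold change 0.53, SE 0.20, adjusted p = 0.157, limma), and Taf1c had 0 to 1.86 in WT and 4.20 to 6.30 in KO (adjusted p = 0.0927, limma). Among 14 regulators of TOP messenger RNAs, 4 were below 0 and the median was 0.22. Cnbp, which binds TOP messenger RNAs, averaged 2580 ± 169 in WT and 3331 ± 299 in KO (log2 fold change 0.37, SE 0.10, adjusted p = 0.0636, limma), and the kinase gene Mtor 98.5 ± 13.4 and 145 ± 20.9 (log2 fold change 0.56, SE 0.18, adjusted p = 0.102, limma). Among 9 elongation, termination and recycling factors, 3 were below 0, the median was 0.12 and those of smallest p were Etf1 (log2 fold change 0.45, SE 0.16) and Eif5a (-0.23, SE 0.10). Among 8 ribosomal protein genes outside the naming rule, 6 were below 0 and the median was -0.03. Rps27rt, which is among these 8, was also counted above as a copy row of Rps27. Fau, which encodes a 40S protein fused to a ubiquitin-like domain, averaged 280.1 ± 39.9 in WT and 216 ± 22.2 in KO (adjusted p = 0.196, limma).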

How the data were processed

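RNA of 5 pooled oocytes per library was amplified by Smart-Seq2, built into Nextera XT libraries without strand or molecular identifiers, and read from both ends at 75 bases, per the labels' protocols. The submitters' processing notes name the builds mm10 and GRCm38 and the tools STAR, cutadapt, FastQC, DESeq2 and DESeq. The deposited values are a signal, normalized read counts that the authors scaled by size factors, per the file headers, which name DESeq2. Each column steps by the value of 1 read (0.899 to 1.11), so whole reads were recovered for 100% of values above 0, within 0.1 reads. For a gene at 0 the limit is 3 reads (0.375 to 0.465 CPM), which covers counting error only. The number of sample columns left unused was 0.

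Groups and replicate numbers came from the sample titles. The main test was limma-trend (limma 3.58.1, R 4.3.3) on log2(value + 1), which understates the change of low genes, over genes that reached a value of 1 in 3 or more libraries, adjusted over all 18762 tested genes at a threshold of 0.05. Alternatives were other pseudocounts and filters, libraries scaled to the same total, leaving out each library, a replicate block, a length and GC trend removed per library (mgcv 1.9.3), edgeR 4.0.16 and DESeq2 1.42.0 on the recovered reads, and members under 50% of shared windows. Adding the copies to each member was chosen after seeing the data. edgeR's biological coefficient of variation was 14%. The limma and edgeR fits were also run on simulated counts, with the same dispersion for every gene and no length or GC trend. The outcome of that run is not reported here, and no result rests on it.

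The naming rule of the members uses no measured value, but it and all lists were chosen with earlier results of these data known. Named members are those past the threshold, the 12 of smallest p, the 5 highest and 5 lowest per kilobase, the paralogs with their parents, and the highest and lowest fold change of each role group. The results of some genes that the rule names are not reported here, and figures of single genes leave them out, though all counts, medians and totals include them. From the other lists those past the threshold are named, or the 2 of smallest p. Copy rows named beyond this, and the oocyte and cell markers named as examples, were chosen after their values were seen. Gene rows matched GENCODE M21 for 95.3% of genes. The deposited end lay 1 base past GENCODE's in 95.6% of these, so the base before it is printed. For a transcript's length the best-supported transcript of lower-median length was taken.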

Additional observations from a re-analysis of the deposited data

How the results depend on the processing

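The direction of the members' median did not depend on any setting tried: it stayed below 0 throughout, between -0.06 with the length and GC trend removed and -0.24 without KO replicate 1. The number of members called lower did. It was 1 in the main fit (1.41% of all tested genes), 3 in edgeR (2.58%), 3 in DESeq2 (3.13%) and 2 with the copies added (1.4%). It was 2 with a pseudocount of 5, 3 without a filter and 3 when genes had to reach 10 in 3 libraries. For these settings the share over all genes is not given here, so their counts are not read as a result about the members. The number called lower was 0 with the same total per library, 0 with the trend removed and 0 of the 34 members with less than 50% of windows shared, of which 29 had a fold change below 0. Leaving out 1 library gave 0 to 6, with 6 only without KO replicate 1, namely Rpl35, Rps7, Rpl11, Rpl37, Rpl13a and Rps24. That fit also called the most genes over the whole table (889). For the fits without 1 library the share of all genes called lower is not given here either. Their counts are likewise not read as a result about the members. The number called higher was 0 under every setting. Over all genes, 615 were called, and 112 to 889 when 1 library was left out (262, 189 and 112 without WT replicates 1 to 3, and 889, 321 and 379 without KO replicates 1 to 3).

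With a replicate block, 0 members were called lower and 421 genes in all. Libraries of the same number did not deviate together (correlations of -0.08, -0.02 and -0.04 over genes), so the numbers are not taken as pairs, and the cause of the lost call was not tested. Scaling to the same total moved the median of all genes from -0.01 to 0.04 and the split of calls from 351 higher and 264 lower to 488 and 176. The members' median was then -0.11, with 56 below 0. Removing the trend gave 283 higher and 329 lower. Of 508 values of the 32 named members under these alternatives, 0 reversed in a call, 9 were no longer past the threshold (all of Rpl35), 15 newly passed it and 21 moved by more than the replicate spread. Rows such as Rps27 with 41 reads in 6 libraries are limited by depth.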
